A study of Homo sapiens with 12 samples.

Results

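The BCL2 family genes of death and survival measured here were 10 of the 63241 genes in the table, found by matching gene names: the BH3-only genes BBC3, PMAIP1, BMF, BCL2L11, BIK and HRK, the pore-forming gene BAK1, and the pro-survival genes MCL1, BCL2L1 and BCL2. Their transcripts were counted in 2 wild-type human testicular germ cell tumour lines treated with I-BRD9 or with its solvent DMSO. I-BRD9 is a chemical inhibitor directed at the bromodomain of BRD9, which belongs to a SWI/SNF chromatin remodelling complex. The 4 groups, with 3 libraries each, were TCam-2 cells in 15 µM I-BRD9, TCam-2 cells in DMSO, 2102 EP cells in 15 µM I-BRD9 and 2102 EP cells in DMSO, all taken after 24 h. TCam-2 is a seminoma line, kept in RPMI, and 2102 EP an embryonal carcinoma line, kept in DMEM, so line and medium cannot be told apart in a comparison of the lines. Each tumour type was represented by 1 line.

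BCL2 family proteins decide at the mitochondrial outer membrane whether a cell enters intrinsic apoptosis. BAK1, like its relative BAX, forms the pores that release cytochrome c. MCL1, BCL-XL (the product of BCL2L1) and BCL2 hold the pore formers back, and BH3-only proteins bind these survival proteins or act on the pore formers directly. Germ cell tumours of the testis are known for their readiness to undergo apoptosis, which is often discussed beside their sensitivity to cisplatin.

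Promoter sequence is given for 3 BH3-only genes because their transcripts behaved differently: BMF was higher with I-BRD9 in both lines, BBC3 moved in opposite directions, and PMAIP1 was lower in 2102 EP. RefSeq promoters (GRCh38.p14) were found for 8 of the 10 genes, and BIK and MCL1 had no entry. Each stretch below ends just before the first annotated base of the gene in GENCODE release 29 and is written 5′ to 3′ on the strand of the gene. Capitals mark matches on either strand to 5 of the motifs searched: the GC box GGGCGG, the CCAAT box, the E-box CACGTG, the AP-1 site TGANTCA and the cyclic AMP response element core TGACG.
BMF, minus strand, chr15:40108893-40109129: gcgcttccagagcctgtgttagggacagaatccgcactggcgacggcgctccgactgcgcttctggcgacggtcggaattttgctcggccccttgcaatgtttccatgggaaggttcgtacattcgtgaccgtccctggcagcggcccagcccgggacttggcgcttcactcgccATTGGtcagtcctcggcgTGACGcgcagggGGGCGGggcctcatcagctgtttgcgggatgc
BBC3, minus strand, chr19:47232767-47232917: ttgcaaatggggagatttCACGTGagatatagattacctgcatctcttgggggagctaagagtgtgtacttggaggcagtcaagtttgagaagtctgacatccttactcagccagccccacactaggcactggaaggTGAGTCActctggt
PMAIP1, plus strand, chr18:59899746-59899947: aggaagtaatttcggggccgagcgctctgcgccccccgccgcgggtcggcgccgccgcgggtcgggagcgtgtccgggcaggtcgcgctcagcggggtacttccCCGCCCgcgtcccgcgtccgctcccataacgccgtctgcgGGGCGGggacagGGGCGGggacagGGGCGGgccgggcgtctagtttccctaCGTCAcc

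In the 250 bases before the RefSeq start, the GC box was found for 5 of the 8 genes (BCL2L11, BAK1, HRK, BMF and PMAIP1), against 42.6% of 35116 promoters in the RefSeq table. BMF and BCL2L1 had 2 promoter entries each, and the matches of each lay in a single entry. Matches are counted by gene here, while the shares count single entries, so the 2 are not on the same footing. The PMAIP1 stretch held 4 copies of it. CCAAT was found in BMF, BCL2L11, BAK1 and BBC3 (in BBC3 downstream of the printed stretch), against 32.0% of all promoters. TGACG was found in BMF, PMAIP1, HRK, BCL2 and BCL2L1, against 21.2%. The E-box and the AP-1 site were each found in the promoter of BBC3 and for none of the other 7 genes, against 6.34% and 6.57% of all promoters. The FOXO motif GTAAACA was found in the promoter of BCL2L11, against 2.98%. The matches shown do not overlap each other, and a match describes letters, not binding.

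Libraries held between 7290335 and 10053366 estimated counts, so that 3 counts stood for 0.297 to 0.409 CPM (counts scaled to a fixed library size, with TMM factors). Pearson r between replicate libraries was 0.971 to 0.981, and no pair of replicates was as close as counting noise alone would leave it. BRD9 itself had 122.9 ± 6.88 CPM with I-BRD9 and 141.8 ± 3.62 CPM with DMSO in TCam-2, and 92.6 ± 11.2 and 111.0 ± 11.7 CPM in 2102 EP (SD, n = 3 each). Its log2 fold change was −0.21 ± 0.09 in TCam-2 (edgeR adjusted p = 0.0965) and −0.26 ± 0.09 in 2102 EP (0.0328). The call in 2102 EP did not hold with I-BRD9 replicate 2 (edgeR adjusted p = 0.105) or 3 (0.166) left out, or with DMSO replicate 1 (0.0645) or 3 (0.177) left out, and BRD9 passed in TCam-2 with 2102 EP I-BRD9 replicate 1 left out (0.0423). The embryonal carcinoma and seminoma marker lists, of 8 genes each, share POU5F1 and NANOG. Both genes enter both sums given below. POU5F1 averaged 323.0 CPM in TCam-2 with I-BRD9 and 694.9 CPM with DMSO, and 186.3 and 386.1 CPM in 2102 EP. NANOG averaged 12.8 and 524.5 CPM in TCam-2, and 19.3 and 175.3 CPM in 2102 EP. Embryonal carcinoma markers at 1 CPM or more numbered 6 in TCam-2 with I-BRD9 (ZFP42 at 0) and 7 with DMSO, and 8 in 2102 EP with either. Seminoma markers at 1 CPM or more numbered 7 in TCam-2 with I-BRD9 and 8 with DMSO, and 4 in 2102 EP with I-BRD9 (SOX17, PRAME and NANOS3 at 0) and 5 with DMSO. Within a treatment each line had the higher sum of its own list. Mitochondrially encoded transcripts took 10.8 to 11.4% of the counts in 2102 EP with I-BRD9 and 8.21 to 10.1% with DMSO, and 6.07 to 7.76% in TCam-2 with I-BRD9 and 7.03 to 7.40% with DMSO. The summed embryonal carcinoma markers stood at 491.7 to 504.3 CPM in TCam-2 with I-BRD9 and at 1523 to 1608 CPM with DMSO, and at 1366 to 1421 CPM in 2102 EP with I-BRD9 and at 3091 to 3178 CPM with DMSO. The summed seminoma markers stood at 1477 to 1626 CPM in TCam-2 with I-BRD9 and at 2622 to 3046 CPM with DMSO, and at 289.8 to 329.8 CPM in 2102 EP with I-BRD9 and at 649.0 to 780.3 CPM with DMSO. Both sums were lower with I-BRD9 in both lines, and the embryonal carcinoma sum of 2102 EP with I-BRD9 lay below that of TCam-2 with DMSO. Single seminoma markers did not all fall. In TCam-2 KIT averaged 49.4 CPM with I-BRD9 and 26.5 CPM with DMSO (log2 fold change 0.90, edgeR adjusted p = 0.0001435). POU5F1, NANOG, SOX17, PRDM1 and PRAME were called lower there. TFAP2C did not pass in TCam-2 (edgeR adjusted p = 0.342) or in 2102 EP (0.143). Stromal markers, of which 3 or 4 of 7 reached 1 CPM and DCN and LUM were at 0 in 2102 EP, summed to 132.7 to 156.8 CPM with I-BRD9 and 230.3 to 256.8 CPM with DMSO in 2102 EP, and to 89.7 to 136.1 and 191.1 to 197.6 CPM in TCam-2. A different gene gave most of this sum in each line. In 2102 EP it was THY1, with means of 119 CPM with I-BRD9 and 220 CPM with DMSO. In TCam-2 it was COL1A2, with means of 93.0 and 150.4 CPM. Blood and immune markers summed to at most 4.41 CPM in any library, with CD3E and HBB at 0 in every library of both lines. Testis somatic markers, of which 2 or 3 of 7 reached 1 CPM, summed to 28.7 to 32.3 CPM with I-BRD9 and 20.2 to 28.8 CPM with DMSO in TCam-2, and to 22.3 to 32.5 and 13.8 to 20.0 CPM in 2102 EP. The part of these shifts in the results below was not tested. In bulk libraries, fewer cells of a kind and less RNA per cell cannot be told apart.

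All 10 genes passed the low-count filter, which kept 15614 genes. Calls are those of edgeR's quasi-likelihood test at an adjusted p under 0.05. In TCam-2, 4 of the 10 were called after I-BRD9, with BMF, BCL2L11 and BBC3 higher and BAK1 lower, while 31.8% of all genes tested were called (15.3% higher and 16.5% lower). In 2102 EP, 6 were called, with BMF, HRK and BIK higher and PMAIP1, MCL1 and BBC3 lower, against 36.8% of all genes (18.2% higher and 18.6% lower). The difference between the lines' effects was called for 5 (BBC3, MCL1 and PMAIP1 above 0, HRK and BAK1 below), against 13.1% of all genes (5.9% above and 7.19% below). The median log2 fold change of the 10 was 0.03 in TCam-2 and 0.19 in 2102 EP, beside medians of 0.01 and 0.00 over all genes tested. The I-BRD9 and DMSO libraries did not overlap for 5 of the 10 genes in TCam-2 and 7 in 2102 EP, against 45.7% and 46.3% of all genes. These counts describe a chosen set of genes.

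**Figure D1:**
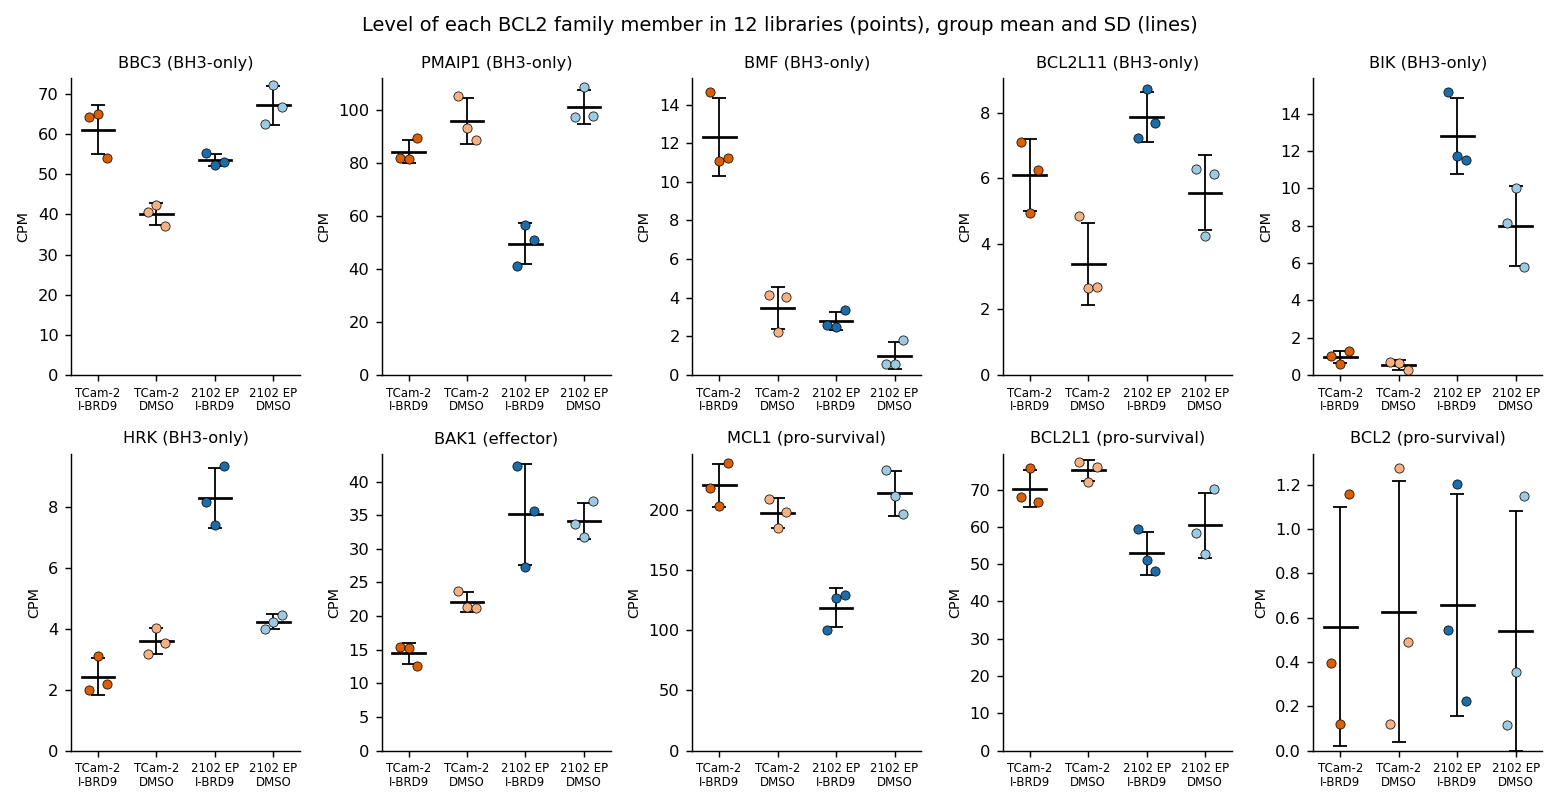
Level of each of the 10 genes in CPM in the 12 libraries (points), with the group mean (thick line) and SD (bars, n = 3), for TCam-2 with I-BRD9, TCam-2 with DMSO, 2102 EP with I-BRD9 and 2102 EP with DMSO. BMF stands highest in TCam-2 with I-BRD9, with a mean of 12.3 CPM, MCL1 and PMAIP1 stand lowest in 2102 EP with I-BRD9, with means of 118 and 49.5 CPM, and the points of BCL2 overlap in all groups at 0.114 to 1.27 CPM.

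BMF (ENSG00000104081, chromosome 15, 40087890 to 40108892, minus strand, GRCh38) encodes a BH3-only protein that is known to be held on the actin motor complex of myosin V and freed by stress. It had 14.6, 11.1 and 11.2 CPM in TCam-2 with I-BRD9, against 4.13, 2.23 and 4.04 CPM with DMSO. All 3 I-BRD9 libraries lay above all DMSO libraries. The log2 fold change was 1.84 ± 0.30 (SE; edgeR adjusted p = 4.28e-05), or 3.57-fold. In 2102 EP the gene had 2.59, 2.50 and 3.35 CPM with I-BRD9, against 0.572, 0.590 and 1.79 CPM with DMSO. The groups again did not overlap, and the highest DMSO library was replicate 3. The log2 fold change was 1.53 ± 0.39 (edgeR adjusted p = 0.00389), and it was 2.26 without DMSO replicate 3. The sum of the DMSO group in 2102 EP was 24 counts over 3 libraries, which limits the precision of that ratio. The difference between the lines was 0.30 on the log2 scale (95% interval −0.78 to 1.39, edgeR adjusted p = 0.771), so these data do not tell a like response from one that differed within that interval. BMF-AS1 overlaps the gene on the other strand.

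BCL2L11 (ENSG00000153094, chromosome 2, 111119378 to 111168447, plus strand) encodes BIM, a BH3-only protein that binds every pro-survival relative and can act on the pore formers. It had 7.12, 4.93 and 6.26 CPM in TCam-2 with I-BRD9, against 4.84, 2.65 and 2.69 CPM with DMSO. The groups lay close without overlap, with 4.93 CPM in the lowest I-BRD9 library and 4.84 CPM in the highest DMSO library. The log2 fold change was 0.85 ± 0.27 (SE; edgeR adjusted p = 0.0170). It no longer passed when I-BRD9 replicate 1 was left out (edgeR adjusted p = 0.0892), nor when DMSO replicate 2 (0.0913) or 3 (0.0821) was. In 2102 EP the gene had 7.23, 8.71 and 7.70 CPM with I-BRD9, against 6.29, 4.24 and 6.14 CPM with DMSO, and all I-BRD9 libraries lay above all DMSO libraries. The log2 fold change there was 0.51 (95% interval −0.01 to 1.03, edgeR adjusted p = 0.121) and did not pass. The difference between the lines was 0.34 (95% interval −0.41 to 1.10, edgeR adjusted p = 0.613). MIR4435-2HG overlaps the gene on the other strand.

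BBC3 (ENSG00000105327, chromosome 19, 47220822 to 47232766, minus strand) encodes PUMA, a BH3-only protein induced by DNA damage. It had 64.4, 65.1 and 54.0 CPM in TCam-2 with I-BRD9, against 40.6, 42.5 and 37.1 CPM with DMSO. The I-BRD9 libraries lay above the DMSO libraries, and the log2 fold change was 0.61 ± 0.10 (SE; edgeR adjusted p = 4.81e-05). Libraries of 2102 EP had 55.2, 52.3 and 52.99 CPM with I-BRD9, against 62.6, 72.2 and 66.9 CPM with DMSO. Here the I-BRD9 libraries lay below the DMSO libraries. The log2 fold change was −0.33 ± 0.10 (edgeR adjusted p = 0.0105), which missed the threshold with DMSO replicate 2 left out (edgeR adjusted p = 0.0628). The effects differed by 0.94 ± 0.14 (TCam-2 minus 2102 EP, edgeR adjusted p = 4.59e-05). Among the 10 genes, BBC3 was the one with a called rise in one line and a called fall in the other. MIR3191 overlaps the gene on the same strand and MIR3190 on the other.

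PMAIP1 (ENSG00000141682, chromosome 18, 59899948 to 59904306, plus strand) encodes NOXA, a BH3-only protein that binds MCL1 and favours its degradation. It had 81.8, 81.3 and 89.2 CPM in TCam-2 with I-BRD9, against 105, 93.0 and 88.5 CPM with DMSO. The groups overlapped, and the log2 fold change of −0.18 (95% interval −0.40 to 0.03, edgeR adjusted p = 0.183) did not pass. The values in 2102 EP were 41.0, 56.6 and 50.8 CPM with I-BRD9, against 97.4, 108 and 97.4 CPM with DMSO. Every I-BRD9 library lay far below every DMSO library, and the log2 fold change was −1.03 ± 0.11 (edgeR adjusted p = 8.29e-08), or 2.04-fold lower. The effects differed by 0.84 ± 0.15 (TCam-2 minus 2102 EP, edgeR adjusted p = 0.000308).

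BIK (ENSG00000100290, chromosome 22, 43110748 to 43129712, plus strand) encodes a BH3-only protein of the endoplasmic reticulum membrane. In TCam-2 it was near the floor, at 0.989, 0.601 and 1.28 CPM with I-BRD9, against 0.708, 0.637 and 0.245 CPM with DMSO. The groups summed to 26 and 14 counts and overlapped, and the log2 fold change was 0.82 (95% interval −0.15 to 1.79, edgeR adjusted p = 0.194). In 2102 EP the gene had 15.1, 11.7 and 11.5 CPM with I-BRD9, against 8.12, 10.0 and 5.75 CPM with DMSO. The groups did not overlap, and the log2 fold change was 0.67 ± 0.25 (SE; edgeR adjusted p = 0.0356). This call rested on single libraries. It was lost without I-BRD9 replicate 1 (edgeR adjusted p = 0.133) or 2 (0.0546), and without DMSO replicate 1 (0.0788) or 3 (0.168).

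HRK (ENSG00000135116, chromosome 12, 116856144 to 116881441, minus strand) encodes harakiri, a BH3-only protein known from rodent neurons deprived of growth factor. It had 1.98, 3.12 and 2.20 CPM in TCam-2 with I-BRD9, against 3.19, 4.03 and 3.55 CPM with DMSO. The I-BRD9 libraries lay below the DMSO libraries, but the log2 fold change of −0.57 (95% interval −1.13 to −0.01, edgeR adjusted p = 0.113) did not pass after adjustment over all genes. In 2102 EP it had 8.18, 7.41 and 9.37 CPM with I-BRD9, against 4.004, 4.24 and 4.47 CPM with DMSO. The I-BRD9 libraries all lay above, and the log2 fold change was 0.97 ± 0.24 (edgeR adjusted p = 0.00282). The effects differed by −1.54 ± 0.36 (TCam-2 minus 2102 EP, edgeR adjusted p = 0.00514), the widest gap between the lines among the 10 genes.

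BAK1 (ENSG00000030110, chromosome 6, 33572547 to 33580293, minus strand), the pore-forming gene of the set, had 15.4, 15.3 and 12.6 CPM in TCam-2 with I-BRD9, against 23.7, 21.3 and 21.2 CPM with DMSO. The I-BRD9 libraries lay below the DMSO libraries, and the log2 fold change was −0.61 ± 0.15 (SE; edgeR adjusted p = 0.00300). Libraries of 2102 EP had 42.3, 27.3 and 35.7 CPM with I-BRD9, against 33.6, 31.7 and 37.1 CPM with DMSO. The I-BRD9 libraries spread to both sides of the DMSO libraries, with a log2 fold change of 0.03 (95% interval −0.25 to 0.32, edgeR adjusted p = 0.874). The effects differed by −0.65 ± 0.20 (TCam-2 minus 2102 EP, edgeR adjusted p = 0.0383). That difference was a weak call. It did not pass with limma voom (adjusted p = 0.0588), nor without any one of 7 of the 12 libraries (edgeR adjusted p from 0.0545 to 0.101): in TCam-2 I-BRD9 replicate 3 and DMSO replicates 1 and 2, and in 2102 EP replicates 1 and 3 with I-BRD9 and 1 and 2 with DMSO. GGNBP1 overlaps BAK1 on the other strand.

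MCL1 (ENSG00000143384, chromosome 1, 150574551 to 150579738, minus strand), a short-lived survival protein, gave the most abundant transcript of the 10 in every group, on the CPM scale of 3′ end counts, which do not grow with transcript length. It had 218, 203 and 239 CPM in TCam-2 with I-BRD9, against 209, 185 and 198 CPM with DMSO. The groups overlapped, and the log2 fold change of 0.16 (95% interval −0.04 to 0.36, edgeR adjusted p = 0.221) did not pass. The values in 2102 EP were 99.8, 127 and 129 CPM with I-BRD9, against 233, 211 and 196 CPM with DMSO. All I-BRD9 libraries lay below all DMSO libraries, and the log2 fold change was −0.85 ± 0.10 (edgeR adjusted p = 4.04e-07), or 1.80-fold lower. The effects differed by 1.01 ± 0.14 (TCam-2 minus 2102 EP, edgeR adjusted p = 1.42e-05). ADAMTSL4-AS1 overlaps the gene on the same strand.

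BCL2L1 (ENSG00000171552, chromosome 20, 31664452 to 31723989, minus strand), which encodes BCL-XL and, by another splice form, the pro-death BCL-XS, had 68.0, 75.9 and 66.8 CPM in TCam-2 with I-BRD9, against 77.3, 72.0 and 76.2 CPM with DMSO. In 2102 EP it had 59.4, 51.1 and 48.2 CPM with I-BRD9, against 58.3, 52.8 and 70.1 CPM with DMSO. The groups overlapped in both lines. The log2 fold changes were −0.10 in TCam-2 (95% interval −0.31 to 0.12, edgeR adjusted p = 0.526) and −0.19 in 2102 EP (−0.42 to 0.03, edgeR adjusted p = 0.171). Gene-level counts do not part its splice forms. AL117381.1 and ABALON overlap the gene on the other strand.

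BCL2 (ENSG00000171791, chromosome 18, 63123346 to 63320128, minus strand), the survival gene after which the family is named, was barely detected. It had 0.396, 0.120 and 1.16 CPM in TCam-2 with I-BRD9 and 0.118, 1.27 and 0.490 CPM with DMSO. Libraries of 2102 EP had 0.545, 1.20 and 0.223 CPM with I-BRD9 and 0.114, 0.354 and 1.15 CPM with DMSO. Each group summed to 13 to 18 counts over 3 libraries, and all groups overlapped. The log2 fold changes of −0.20 in TCam-2 (95% interval −2.004 to 1.60, edgeR adjusted p = 0.896) and 0.35 in 2102 EP (−1.48 to 2.18, edgeR adjusted p = 0.797) leave a wide range of changes that this depth could not detect. AC022726.1 overlaps the gene on the same strand and AC022726.2 on the other.

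**Figure D2:**
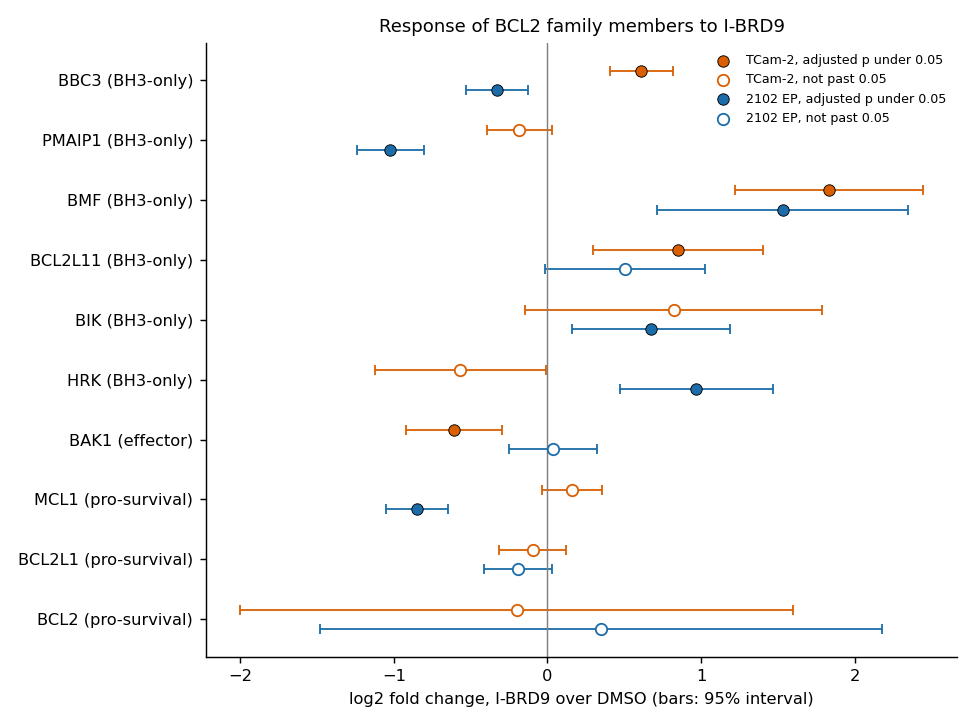
Log2 fold change of each gene, I-BRD9 over DMSO, in TCam-2 (upper of each pair) and 2102 EP (lower), with the 95% interval as bars and filled points where the adjusted p was under 0.05. BBC3 lies at 0.61 in TCam-2 and −0.33 in 2102 EP, MCL1 at 0.16 and −0.85, HRK at −0.57 and 0.97, and BMF lies to the right in both lines at 1.84 and 1.53.

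Summed by role, the transcripts differed in composition between treatments. The 6 BH3-only genes together had 167.1 ± 3.41 CPM in TCam-2 with I-BRD9, against 146.6 ± 11.3 CPM with DMSO, and 134.8 ± 4.98 CPM in 2102 EP with I-BRD9, against 187.0 ± 11.1 CPM with DMSO (SD, n = 3 each). Libraries did not overlap in either line. BBC3 and PMAIP1 made up most of these sums: 87.0 ± 1.32% in TCam-2 with I-BRD9 and 92.5 ± 0.793% with DMSO, and 76.4 ± 1.91% in 2102 EP with I-BRD9 and 90.0 ± 0.529% with DMSO. The other 4 BH3-only genes together stood at 21.8 ± 2.61 CPM in TCam-2 with I-BRD9 and 10.98 ± 1.70 CPM with DMSO, and at 31.8 ± 1.39 CPM in 2102 EP with I-BRD9 and 18.7 ± 0.518 CPM with DMSO. Of these 4, BMF had the widest gap in TCam-2, with a mean of 12.3 CPM with I-BRD9 and 3.47 CPM with DMSO. In 2102 EP the means of all 4 were higher with I-BRD9, and BIK had the widest gap, with 12.8 CPM with I-BRD9 and 7.97 CPM with DMSO. BID and BAD, BH3-only genes outside the set, are not in these sums. In TCam-2, BID averaged 11.9 CPM with I-BRD9 and 21.2 CPM with DMSO, and BAD 15.4 and 16.1 CPM. In 2102 EP, BID averaged 5.57 and 5.19 CPM, and BAD 13.9 and 15.2 CPM. Sums that include them were not made, so the lack of overlap holds for the 6 genes only.

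The 3 pro-survival genes together had 290.9 ± 14.4 CPM in TCam-2 with I-BRD9 and 272.9 ± 14.2 CPM with DMSO, with overlapping libraries. In 2102 EP they had 172.0 ± 10.6 CPM with I-BRD9 and 274.5 ± 14.8 CPM with DMSO, without overlap. MCL1 transcripts outnumbered those of BCL2L1 3.15 ± 0.454 to 1 in TCam-2 with I-BRD9 and 2.62 ± 0.0702 to 1 with DMSO, and 2.28 ± 0.527 to 1 in 2102 EP with I-BRD9 and 3.60 ± 0.689 to 1 with DMSO. Transcripts of the BH3-only genes of the set, without BID and BAD, per transcript of these 3 came to 0.575 ± 0.0351 in TCam-2 with I-BRD9 and 0.537 ± 0.0361 with DMSO, with overlap. In 2102 EP this ratio was 0.784 ± 0.0227 with I-BRD9 and 0.684 ± 0.0707 with DMSO, and the lowest I-BRD9 library (0.766) lay just above the highest DMSO library (0.755). With 3 against 3 libraries no exact 2-sided permutation test of such sums could pass 0.05, so they are given as descriptions. Transcript sums say nothing of protein amounts, which were not measured.

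**Figure D3:**
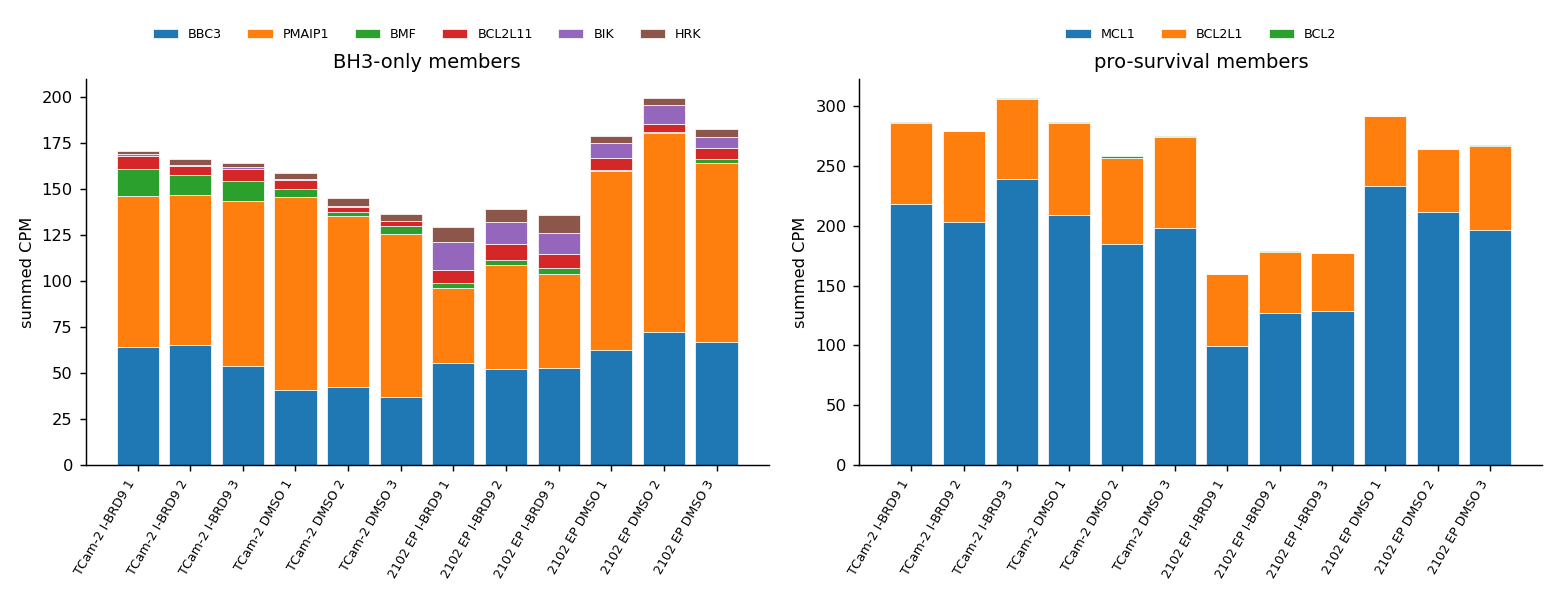
Summed CPM per library of the 6 BH3-only genes (left, stacked by gene) and the 3 pro-survival genes (right), with bars starting at 0, for TCam-2 with I-BRD9, TCam-2 with DMSO, 2102 EP with I-BRD9 and 2102 EP with DMSO, replicates 1 to 3 of each. In 2102 EP with I-BRD9 the MCL1 and PMAIP1 segments are short and the pro-survival sum averages 172.0 CPM, and in TCam-2 with I-BRD9 the BMF segment is the tallest of the 4 groups, at a mean of 12.3 CPM.

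Between the lines, the widest gap was in BIK. With DMSO, BIK averaged 0.530 ± 0.249 CPM in TCam-2 and 7.97 ± 2.14 CPM in 2102 EP (log2 fold change −3.86 ± 0.36, edgeR adjusted p = 3.02e-09), and with I-BRD9 the change was −3.71 ± 0.32 (edgeR adjusted p = 7.62e-10). BMF was higher in TCam-2, by 1.82 ± 0.39 with DMSO (edgeR adjusted p = 0.000284, and 2.54 without 2102 EP DMSO replicate 3) and by 2.13 ± 0.30 with I-BRD9 (edgeR adjusted p = 2.19e-06). With DMSO, 6 of the 10 genes were called between the lines, against 62.6% of all genes tested (31.7% higher and 30.8% lower), a share close to the background. Apart from BIK and BMF these were BBC3 (−0.75 ± 0.10), BAK1 (−0.63 ± 0.14) and BCL2L11 (−0.71 ± 0.27), lower in TCam-2, and BCL2L1 (0.32 ± 0.11), higher in TCam-2. The call of BCL2L11 was lost without 2102 EP DMSO replicate 1 or 3 or TCam-2 DMSO replicate 2 or 3 (edgeR adjusted p from 0.0803 to 0.119), and that of BCL2L1 without 2102 EP DMSO replicate 1 (0.0518) or 2 (0.0916). With DMSO the groups did not overlap for 5 of the 10, against 67.6% of all genes.

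With I-BRD9, 7 of the 10 were called between the lines, against 62.2% of all genes tested (31.1% in each direction). MCL1 (0.89 ± 0.10) and PMAIP1 (0.76 ± 0.11) were higher in TCam-2 with I-BRD9, where with DMSO their fold changes were −0.12 (95% interval −0.31 to 0.08) and −0.08 (−0.29 to 0.13). HRK was lower in TCam-2 with I-BRD9 (−1.78 ± 0.25, edgeR adjusted p = 2.36e-06) and had a fold change of −0.24 (−0.76 to 0.29) with DMSO. BAK1 was lower by −1.27 ± 0.15 and BCL2L1 higher by 0.41 ± 0.11. BBC3 stood at 0.19 (−0.01 to 0.40, edgeR adjusted p = 0.0877) and passed without TCam-2 I-BRD9 replicate 3 (edgeR adjusted p = 0.0279). BCL2L11 stood at −0.37 (−0.88 to 0.15) and BCL2 at −0.27 (−2.06 to 1.52). With I-BRD9 the lines did not overlap for 8 of the 10 genes, against 66.3% of all genes. The comparisons of the lines share their libraries with the comparisons of treatment.

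**Figure D4:**
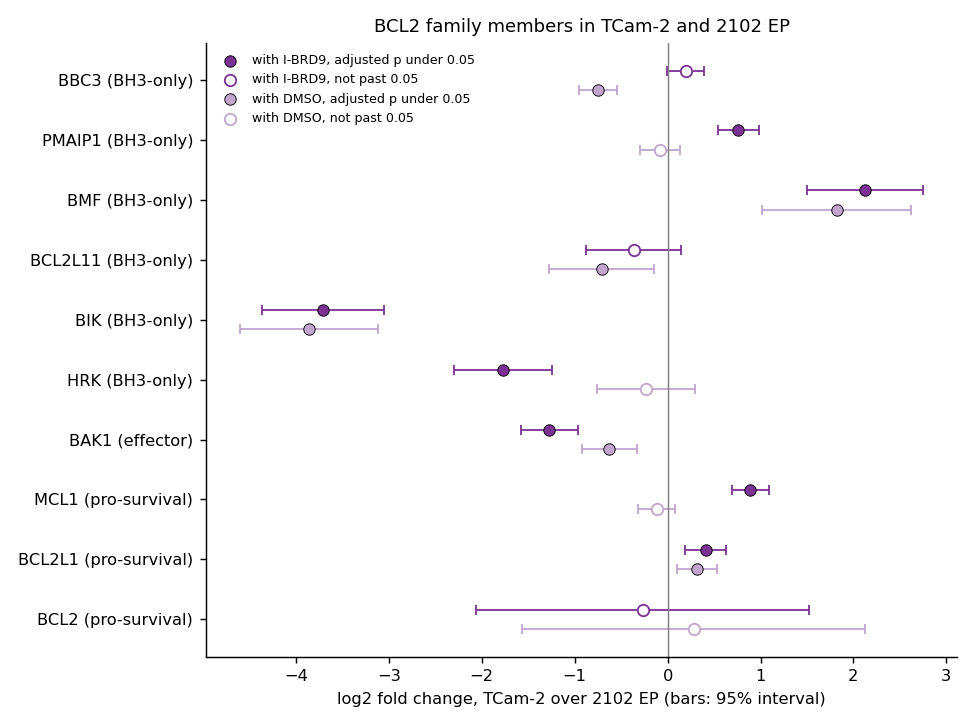
Log2 fold change of each gene, TCam-2 over 2102 EP, with I-BRD9 (upper of each pair, dark) and with DMSO (lower, light), with 95% intervals as bars and filled points where the adjusted p was under 0.05. BIK lies near −3.71 and −3.86 and BMF near 2.13 and 1.82, while MCL1, PMAIP1 and HRK lie close to 0 with DMSO and at 0.89, 0.76 and −1.78 with I-BRD9.

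For each of the 10 genes the gene with the most similar log2 CPM over the 12 libraries was sought among 8448 genes with a mean of at least 10 CPM. The 12 libraries share lines and treatments, so these values describe a shared pattern over 4 groups. BIK was nearest to ORC4 (Pearson r = 0.988), BAK1 to KIF15 (0.981) and MCL1 to ERRFI1 (0.977). PMAIP1 was nearest to LAPTM4B (0.973), BMF to RAB40C (0.973), BCL2L1 to BRD9 (0.961) and HRK to TMED5 (0.958). BBC3 was nearest to N4BP3 (0.945) and BCL2L11 to IGF2BP3 (0.910). BCL2, with its few counts, reached no more than 0.747 (ZNF292).

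Of 15 further BCL2 family genes 12 were tested. In TCam-2, 1 rose and 2 fell after I-BRD9, where 31.8% of all genes tested were called. BNIP3L, a mitophagy receptor gene, rose to 70.4 ± 5.18 CPM with I-BRD9, against 33.9 ± 1.77 CPM with DMSO (log2 fold change 1.06 ± 0.11, edgeR adjusted p = 1.84e-07), and its effect differed from that in 2102 EP by 1.00 ± 0.17 (edgeR adjusted p = 0.000252). BID, whose protein links caspase 8 to the mitochondrion, fell to 11.9 ± 2.63 CPM with I-BRD9, against 21.2 ± 3.85 CPM with DMSO (−0.83 ± 0.19, edgeR adjusted p = 0.00200). BCL2L12 fell by 0.40 on the log2 scale. In 2102 EP, 4 fell and 8 did not pass, where 36.8% of all genes tested were called (18.6% lower). BCL2L14 had 2 counts in all with I-BRD9, against 38 with DMSO (edgeR adjusted p = 0.00174). BCL2L13 (−0.43), BNIP3 (−0.29, with shared reads in 10 libraries) and BCL2L12 (−0.25) fell less, and each of these 3 calls was lost without I-BRD9 replicate 1 (edgeR adjusted p = 0.0888, 0.129 and 0.175) and without DMSO replicate 1 (0.0578, 0.0698 and 0.0878). Those of BNIP3 and BCL2L12 were also lost without DMSO replicate 2 (0.0969 and 0.112). The medians over the list were −0.03 in TCam-2 and 0.02 in 2102 EP. BAX, the other main pore former, had 31.5 ± 4.37 CPM in TCam-2 with I-BRD9 and 35.3 ± 0.890 CPM with DMSO, and 54.5 ± 4.79 and 50.9 ± 8.76 CPM in 2102 EP. BAX was named after its values were seen.

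Of 13 genes of the mitochondrial death machinery, 1 rose and 2 fell in TCam-2, and 4 rose and 2 fell in 2102 EP. Over all genes tested, 31.8% were called in TCam-2 and 36.8% in 2102 EP. CASP6, an executioner caspase gene, rose in both lines, to 35.5 ± 2.61 CPM with I-BRD9 against 24.0 ± 1.22 CPM with DMSO in TCam-2 (log2 fold change 0.57 ± 0.12, edgeR adjusted p = 0.000552) and to 20.5 ± 0.527 against 12.2 ± 0.386 CPM in 2102 EP (0.74 ± 0.13, edgeR adjusted p = 6.83e-05). In 2102 EP the nuclease gene ENDOG rose to 27.2 ± 0.775 CPM with I-BRD9, against 11.6 ± 2.76 CPM with DMSO (1.23 ± 0.18, edgeR adjusted p = 1.23e-05), and its fold change in TCam-2 was 0.50 (edgeR adjusted p = 0.0508, and 0.0707 for the difference). The gene of cytochrome c, CYCS, fell in TCam-2 (−0.43 ± 0.08, edgeR adjusted p = 0.000249) and in 2102 EP (−0.33 ± 0.08, edgeR adjusted p = 0.00230), with shared reads in 2 libraries. CASP2 passed narrowly in TCam-2 (−0.25, edgeR adjusted p = 0.0355), a call lost without any one of the 6 TCam-2 libraries (0.0501 to 0.0961). The list's medians were −0.05 in TCam-2 and −0.09 in 2102 EP.

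Of 7 genes of inhibitors of apoptosis proteins, some of which block caspases, 5 were tested, of which 2 fell in TCam-2 and 3 in 2102 EP. None rose, and 3 in TCam-2 and 2 in 2102 EP did not pass. The shares of all genes tested that were called lower were 16.5% in TCam-2 and 18.6% in 2102 EP. BIRC5, the survivin gene, which also serves cell division, fell to 65.6 ± 1.77 CPM with I-BRD9, against 105.7 ± 5.59 CPM with DMSO in TCam-2 (−0.69 ± 0.08, edgeR adjusted p = 6.59e-07), and to 109.9 ± 4.69 against 158.0 ± 7.38 CPM in 2102 EP (−0.52 ± 0.08, edgeR adjusted p = 1.63e-05). XIAP passed in 2102 EP (−0.35 ± 0.11, edgeR adjusted p = 0.0154) but not with I-BRD9 replicate 2 (0.0535) or 3 (0.116) left out, and its difference between the lines did not pass (0.201). BIRC7 had 7 counts in 2102 EP with I-BRD9 and 40 with DMSO (edgeR adjusted p = 0.0114, and 0.0611 without I-BRD9 replicate 3). BIRC6 passed in TCam-2 (−0.29, edgeR adjusted p = 0.0307) but not with replicate 2 or 3 of either treatment left out (0.0737 to 0.138). The list's medians were −0.03 in TCam-2 and −0.35 in 2102 EP.

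Of 13 transcription factor genes known upstream of BH3-only genes, 12 were tested, of which 4 rose and 4 fell in TCam-2, and 2 rose and 3 fell in 2102 EP. The shares called over all genes tested were 31.8% and 36.8%. JUN, an AP-1 subunit known upstream of BCL2L11 and HRK in rodent neurons, rose in both lines, to 103.2 ± 1.65 CPM with I-BRD9 against 33.0 ± 2.57 CPM with DMSO in TCam-2 (1.64 ± 0.10, edgeR adjusted p = 1.92e-11) and to 116.1 ± 9.26 against 40.2 ± 4.75 CPM in 2102 EP (1.53 ± 0.10, edgeR adjusted p = 4.43e-11), with shared reads in 2 libraries. FOXO4, of the factor family that drives BCL2L11, rose in TCam-2 to 41.7 ± 1.98 CPM with I-BRD9, against 21.1 ± 1.02 CPM with DMSO (0.98 ± 0.11, edgeR adjusted p = 5.11e-07), and the effects differed by 1.20 ± 0.16 (TCam-2 minus 2102 EP, edgeR adjusted p = 1.69e-05). Of the same family, FOXO1 was also called higher in TCam-2 (0.49, edgeR adjusted p = 0.0157). FOXO3 did not pass there (−0.19, edgeR adjusted p = 0.190), with shared reads in 12 libraries. MYCN fell in both lines, by 0.79 on the log2 scale in TCam-2 (edgeR adjusted p = 0.000199) and by 1.69 in 2102 EP (edgeR adjusted p = 4.21e-09), effects that differed by 0.90 ± 0.20 (edgeR adjusted p = 0.00416). ATF4, a stress factor known upstream of PMAIP1 and BBC3, fell by 0.51 in 2102 EP (edgeR adjusted p = 0.000172, with shared reads in 4 libraries) and had a fold change of −0.05 in TCam-2 (difference 0.46 ± 0.13, edgeR adjusted p = 0.0222). TP63 had 8 counts in TCam-2 with I-BRD9 and 79 with DMSO. The list's medians were −0.03 in TCam-2 and −0.07 in 2102 EP.

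Of 10 genes for partners and turnover factors of the MCL1, BIM and BMF proteins, 2 fell in TCam-2 and 2 rose in 2102 EP. Among all genes tested, 16.5% were called lower in TCam-2 and 18.2% higher in 2102 EP. IER3, an early response gene whose product binds MCL1, had 147.9 ± 4.73 CPM with I-BRD9 and 317 ± 10.2 CPM with DMSO in TCam-2 (−1.10 ± 0.09, edgeR adjusted p = 1.81e-09). In 2102 EP it moved the other way, with 186.6 ± 17.4 CPM with I-BRD9 and 105.5 ± 12.9 CPM with DMSO (0.82 ± 0.09, edgeR adjusted p = 1.99e-07). Its effects differed by −1.92 ± 0.13 (TCam-2 minus 2102 EP, edgeR adjusted p = 2.58e-10), and it was the 1 gene of the list that differed at the threshold, as 13.1% of all genes tested did. DYNLL1, a dynein light chain that holds BIM, fell in TCam-2 (−0.70 ± 0.13, edgeR adjusted p = 0.000459), and its fold change in 2102 EP was −0.25 (edgeR adjusted p = 0.130, and 0.119 for the difference). TPT1 passed narrowly in 2102 EP (0.20, edgeR adjusted p = 0.0426), with shared reads in 10 libraries, a call lost with no low-count filter (0.0848), without I-BRD9 replicate 2 or DMSO replicate 1 or 3 of 2102 EP (0.0928 to 0.181), and without replicate 2 of TCam-2 with I-BRD9 (0.0517) or with DMSO (0.0521). The list's medians were −0.08 in TCam-2 and 0.08 in 2102 EP.

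**Figure D5:**
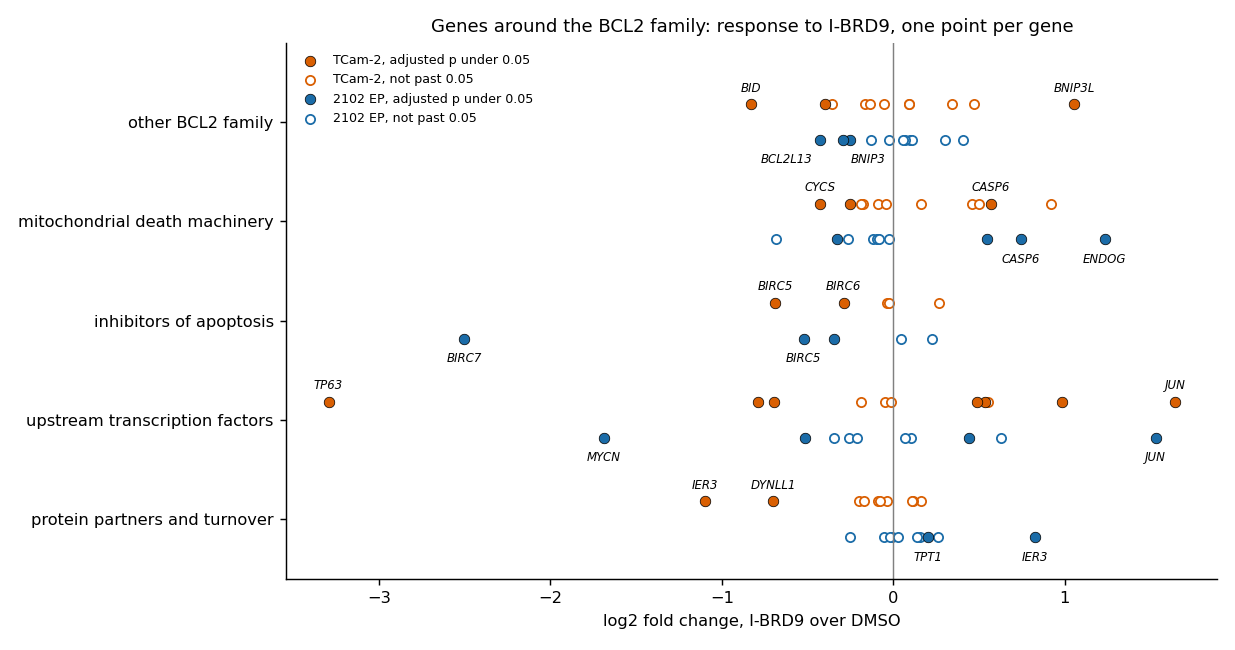
Log2 fold change, I-BRD9 over DMSO, of genes tested in 5 lists around the BCL2 family, with TCam-2 in the upper and 2102 EP in the lower row of each list and filled points where the adjusted p was under 0.05; genes with 3 counts or fewer in a group compared and some genes not reported here are not drawn, and the 2 largest called changes drawn per row are named. JUN lies far right in both lines at 1.64 and 1.53, and IER3 lies at −1.10 in TCam-2 and 0.82 in 2102 EP.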

How the data were processed

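Per the labels' protocols, total RNA was isolated with an RNeasy kit and made into QuantSeq 3′ libraries. The authors deposited gene-level estimated counts from Salmon 1.9.0, and the submitters' processing notes also name Trim Galore, STAR 2.7.11b, R 4.2.0, DESeq2 and GRCh38. Which annotation and strand setting were used is not given in the sources used here, so reads of overlapping genes on opposite strands cannot be told apart. Reads shared between genes leave counts that are not whole, and none of the 10 genes had one (tolerance 0.01).

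Estimated counts were rounded and fitted with edgeR 4.0.16 in R 4.3.3 (glmQLFit, robust, glmQLFTest) on all 12 libraries with 4 group means, which leaves 8 residual degrees of freedom. TMM scaling and filterByExpr with its minimum count of 10 kept 15614 of 63241 genes, and Benjamini-Hochberg adjustment ran over all of them within each of 5 comparisons. A ± beside a log2 value is the standard error, and a ± beside CPM the SD. The labels call the 3 replicates of a group biological without saying how cultures were kept apart, so p-values measure the spread between these samples. Floors and counts cover counting error only.

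The members and lists were chosen with earlier results of these data known. Named are the 10 members, BRD9, up to 4 called genes per list and comparison with the largest changes, and the gene most like each member. Members named to complete a small count, BAX, FOXO1, FOXO3 and the markers given with their own values were chosen after their values were seen. Some genes the rule names are not reported here, though list counts and medians include them. Positions are from GENCODE release 29 and promoters from RefSeq. Alternatives were DESeq2 1.42.0, upper-quartile scaling, no low-count filter, limma 3.58.1 (voom), replicate and library-code blocks, fits on 6 libraries and leaving out each library. Scripts were tested on simulated data.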

Additional observations from a re-analysis of the deposited data

Results flagged for a closer look

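The effect of I-BRD9 differed between the lines for 5 of the 10 genes, where 13.1% of all genes tested were called, by a test of the difference itself (TCam-2 minus 2102 EP, log2 scale, edgeR's quasi-likelihood test over all genes). The 10 genes were chosen with earlier results of these data known, so this count describes a chosen set. MCL1 differed by 1.01 (adjusted p = 1.42e-05), BBC3 by 0.94 (4.59e-05) and PMAIP1 by 0.84 (0.000308). HRK differed by −1.54 (0.00514), and BAK1 by −0.65 (0.0383), which several alternatives lost. In HRK and BBC3 all I-BRD9 libraries lay on opposite sides of the DMSO libraries in the lines. The fall of HRK in TCam-2 was not called (log2 fold change −0.57, edgeR adjusted p = 0.113). Over all genes tested, the I-BRD9 and DMSO libraries did not overlap for 45.7% in TCam-2 and 46.3% in 2102 EP.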

How the results depend on the processing

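No direction of a called result of the 10 genes turned under any alternative run: of 935 values recomputed, 912 stayed on their side of the threshold, 22 lost it and 1 gained it. These 23 concern BBC3, BIK, BCL2L11, BAK1 and BCL2L1, and each is given beside its result. Leaving out each library in turn gave 3 to 4 called members in TCam-2 (4150 to 5462 genes), 5 to 6 in 2102 EP (4743 to 5761 genes), 4 to 5 for the difference (1652 to 2006 genes), 4 to 6 between the lines with DMSO (9170 to 10214 genes) and 7 to 8 with I-BRD9 (9169 to 9858 genes). No strong pairing by replicate number was seen: deviations of same-numbered libraries correlated at −0.119 to 0.16. By the order of the library codes they correlated at −0.119 to 0.127. With 3 libraries per group such values cannot exclude a pairing. With the replicate block 4714 genes were called in TCam-2, 5512 in 2102 EP and 1836 for the difference, and 9598 with DMSO and 9574 with I-BRD9 between the lines, with 4, 6, 5, 6 and 7 members, the counts found without the block. Among the other named genes, calls were lost with upper-quartile scaling for BRD9 (edgeR adjusted p = 0.0712) and BCL2L12 (0.0618) in 2102 EP and for CASP2 (0.0643) and BIRC6 (0.0543) in TCam-2, with no low-count filter for CASP2 (0.0981) and BIRC6 (0.0525), and in the fit on 6 libraries for BRD9 (0.0741), BCL2L13 (0.0505), BCL2L12 (0.0660) and TPT1 (0.0709) in 2102 EP. BRD9 passed in TCam-2 in that fit (0.0335). A fit on 6 libraries was not made for the difference, which needs all 12. Other scalings moved the median gene by at most 0.0403 (log2). Depth limits BCL2, BIK in TCam-2 and BMF in 2102 EP with DMSO, where each group held few counts.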
